A study of Homo sapiens with 12 samples.

Results

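The genes described here are BHLHE41 and 9 other genes of the circadian clock: BHLHE40, PER1, PER2, PER3, CRY1, CRY2, NR1D1, NR1D2 and DBP. They were found by gene symbol in the platform's annotation, which gave 25 of the 54675 probe sets of the array (a probe set is a group of short probes that together read one transcript region). The genes were chosen by their values in the contrast of shBCL9 with shGFP, in which BHLHE41 was much lower, and by their place in the same regulatory circuit. Their values in that contrast are therefore given as a description, without a test.

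Gene expression was measured in H929, an established multiple myeloma cell line, on 12 arrays in 4 groups of 3. In the infected arm, cells carried a hairpin directed at the GFP reporter (shGFP, the control) or at BCL9, a coactivator of Wnt signalling (shBCL9), and the fluorescent cells were sorted. In the transfected arm, cells had received the worm microRNA cel-miR-67 as control or human miR-30, which the labels list as hsa-miR-30a/b/c/d/e without saying whether the 5 were given as a mixture. All groups were untreated otherwise as far as the labels say, and neither the time of day of harvest nor the time since infection or transfection is given. Nothing in the labels ties the arrays of a group to different cultures, so p-values measure only how these arrays vary, and that variation may be technical.

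The clock is a feedback loop of transcription. CLOCK or NPAS2 pairs with BMAL1 on DNA elements called E-boxes and switches on the PER, CRY, NR1D, BHLHE40, BHLHE41 and DBP genes. PER and CRY proteins then inhibit that pair, BHLHE40 and BHLHE41 compete with it at E-boxes as repressors, NR1D1 and NR1D2 repress BMAL1, and DBP carries the rhythm to D-box elements of other genes. BHLHE41 also acts as a regulator of lymphocyte development.

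E-boxes were looked for in the bases before the annotated start, read from RefSeq (GRCh38.p14). The 10 genes had 13 start sites there. The canonical E-box CACGTG, which reads the same on both strands, occurred within 250 bases upstream of a start of BHLHE41, BHLHE40, PER1 and NR1D2. These are 4 of the 10 genes and 4 of their 13 windows, and 6.34% of 35116 such windows in all held one. The BHLHE41 window lies on the minus strand at chr12:26125038-26125287 and the BHLHE40 window on the plus strand at chr3:4979187-4979436, and capitals mark the E-box.
BHLHE41: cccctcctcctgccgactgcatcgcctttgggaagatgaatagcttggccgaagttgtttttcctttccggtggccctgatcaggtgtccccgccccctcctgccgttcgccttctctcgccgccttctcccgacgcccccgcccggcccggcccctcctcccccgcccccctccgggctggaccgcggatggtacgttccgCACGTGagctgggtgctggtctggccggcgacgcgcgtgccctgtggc
BHLHE40: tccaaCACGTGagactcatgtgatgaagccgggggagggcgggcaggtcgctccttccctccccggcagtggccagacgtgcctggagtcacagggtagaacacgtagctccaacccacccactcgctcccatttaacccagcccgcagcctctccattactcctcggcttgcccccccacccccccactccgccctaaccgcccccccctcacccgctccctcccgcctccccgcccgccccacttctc
The E-box began 48 bases before the start of BHLHE41 and 245 bases before that of BHLHE40. NR1D2 had 2 E-boxes, 155 and 105 bases before its second annotated start, and they are shown with 30 bases of context each (plus strand, chr3:23945954-23945983 and chr3:23946004-23946033).
NR1D2, first E-box: ggcgggcggggaCACGTGaggccgctcggc
NR1D2, second E-box: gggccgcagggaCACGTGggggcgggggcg
The D-box sequences TTATGTAA and TTACGTAA (both strands) occurred in 1 window each of NR1D2 and PER3, against 0.940% of all windows, and the core TAGGTCA of the element bound by NR1D and ROR proteins (both strands) in 1 window, of CRY2, against 1.61%. These matches are letters in a window and say nothing of binding in H929 cells.

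The microRNAs of the other treatment share their seed, bases 2 to 8, in capitals. The mature forms printed are those of MIR30A, MIR30C1 and MIR30C2 (1 sequence), and MIR30E.
hsa-miR-30a-5p: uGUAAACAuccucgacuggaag
hsa-miR-30c-5p: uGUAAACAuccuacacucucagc
hsa-miR-30e-5p: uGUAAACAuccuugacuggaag

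Of the 25 probe sets, 17 lay above the 40th percentile of their array (a log2 level of 4.86 to 4.95) in at least 3 arrays. These cover 9 of the 10 genes, all except PER3. PER1 and NR1D1 were read only by probe sets that the annotation lists with a further gene, MIR6883 and THRA respectively, so their values cannot be given to one gene and are described per probe set. The other 7 genes, each represented by its brightest probe set, entered a limma fit with 14725 genes. Plasma cell markers were past the filter in 9 of 9 genes, and their mean level was 11.53 to 11.56 in shGFP, 11.69 to 11.70 in shBCL9, 11.16 to 11.18 in cel-miR-67 and 11.12 to 11.16 in miR-30. It was thus higher in shBCL9 than in shGFP, and in shGFP than in cel-miR-67, without overlap. In shBCL9 the plasma cell surface genes SDC1 and CD38 were higher than in shGFP by 0.88 and 0.71, and FGFR3, a gene activated by the t(4;14) translocation of myeloma, was lower by 0.80 (limma adjusted p = 2.19e-07, 4.58e-07 and 1.36e-06). Other plasma cell markers went either way: TNFRSF17 and PRDM1 were lower by 0.18 and 0.22 and CD27 higher by 0.22 (limma adjusted p = 0.00461, 0.00741 and 0.0413). IRF4, XBP1, MZB1 and JCHAIN were not called (0.14, 0.09, -0.03 and -0.17), nor was NSD2, the other t(4;14) gene listed (0.11). Between the controls, XBP1, a transcription factor of plasma cells, was 1.01 higher in shGFP, FGFR3 4.30-fold higher and the epithelial cadherin gene CDH1 lower (-2.41; limma adjusted p = 4.61e-06, 4.30e-11 and 2.96e-10), with CDH1 under the filter level in shGFP. CD38 went the other way (mean 9.49 in shGFP and 9.83 in cel-miR-67), and CD27 read 5.39 in both. The remaining plasma cell markers had higher means in shGFP. NSD2 differed little (11.12 in shGFP and 11.08 in cel-miR-67).

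Of the markers of other cells, 1 of 5 myeloid genes was past the filter (LYZ, CD14, FCN1 and S100A8 were not), and the list's mean level was 4.76 to 4.93 in shGFP, 4.74 to 4.85 in shBCL9, 4.56 to 4.60 in cel-miR-67 and 4.61 to 4.69 in miR-30. For T and NK cells, 3 of 6 were past it (CD2, CD8A and NKG7 were not), at 5.01 to 5.08, 4.95 to 5.09, 4.83 to 4.87 and 4.92 to 4.97 in the same order. Stromal and epithelial markers (3 of 6 past it, without COL3A1, EPCAM and KRT19) were at 4.66 to 4.79, 4.81 to 4.86, 5.00 to 5.06 and 4.94 to 5.05. B cell markers (3 of 4, without MS4A1) lay between 5.87 and 6.09 with overlapping control groups, and erythroid markers (2 of 2) were at 6.42 to 6.58 in shGFP, 6.54 to 6.61 in shBCL9, 6.08 to 6.32 in cel-miR-67 and 6.07 to 6.31 in miR-30. Between the controls the myeloid, T and NK cell, erythroid and stromal lists did not overlap. In the stromal and epithelial list only CDH1 had a lower mean in shGFP (3.58, against 5.99 in cel-miR-67). COL1A1 and PDGFRB read 7.50 and 5.81 in shGFP and 7.31 and 5.70 in cel-miR-67.

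The 3' minus 5' signal of ACTB, a measure of RNA quality, was 1.17 to 1.36 in shGFP, 1.59 to 1.75 in shBCL9, 2.06 to 2.21 in cel-miR-67 and 2.06 to 2.08 in miR-30. The 18S rRNA signal was 12.30 to 12.43, 13.20 to 13.24, 12.46 to 12.57 and 12.60 to 12.67 in the same order. Both differed without overlap between shBCL9 and shGFP and between shGFP and cel-miR-67, and 18S rRNA was also higher with miR-30 than with cel-miR-67 without overlap. The 3' minus 5' signal of GAPDH overlapped in all these comparisons, at 0.114 to 0.147 in shGFP, 0.106 to 0.145 in shBCL9, 0.140 to 0.213 in cel-miR-67 and 0.175 to 0.249 in miR-30. The part of RNA quality or of marker levels in the results below was not tested.

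BCL9, against which the hairpin was directed, was 0.15 lower in shBCL9 than in shGFP on the log2 scale and did not pass the test (limma adjusted p = 0.0874, 0.0261 to 0.426 over the alternatives; two-sided exact permutation p = 0.1, which is the lowest a comparison of 3 with 3 can give). It was called without shBCL9 replicate 3 (-0.21, limma adjusted p = 0.0310). In the transfected arm it was 0.14 higher with miR-30 (limma adjusted p = 0.269, exact permutation p = 0.2, two-sided). The groups are therefore named below by their labels.

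BHLHE41, the transcriptional repressor also called DEC2, was present in 3 of the groups and close to background in shBCL9. Its brightest probe set, 221530_s_at, read 7.46, 7.62 and 7.62 in the shGFP arrays and 4.95, 5.10 and 4.52 in the shBCL9 arrays. It read 8.04, 8.04 and 7.92 with cel-miR-67 and 7.97, 8.04 and 8.02 with miR-30. All shBCL9 arrays thus lay far below the other 9, and the 2 transfected groups overlapped with each other and lay above shGFP. The difference of shBCL9 from shGFP was -2.71 (SE 0.11), which is 6.54-fold lower, and this is the value that chose the gene. As shBCL9 replicate 3 lay below the filter level and the other shBCL9 arrays not far over it, the size of the fold rests on a value near background. These are bulk samples, in which fewer cells with BHLHE41 RNA and less RNA per cell cannot be told apart.

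A second probe set of BHLHE41, 223185_s_at, had the same order of groups. It read 5.08, 5.16 and 5.18 in shGFP and 3.82, 3.69 and 3.32 in shBCL9, a difference of -1.53, with every shBCL9 array below the filter level. With cel-miR-67 it read 5.30, 5.30 and 5.26, and with miR-30 5.26, 5.21 and 5.49. Probe sets 231242_at (3.13 to 3.52 over all arrays) and 231243_s_at (4.02 to 4.39) were below the filter level in all 12 arrays, and their groups overlapped. The mean of the 4 probe sets was therefore 1.02 lower in shBCL9, a smaller difference than that of either responding probe set.

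**Figure D1:**
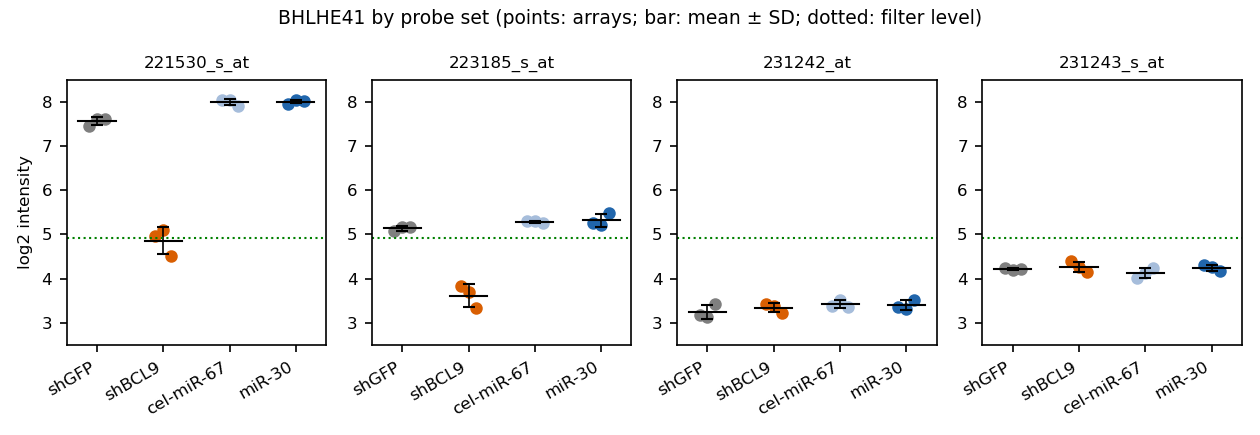
Log2 intensity of the 4 BHLHE41 probe sets (panels) in the 4 groups (x axis), with a point per array, the mean and SD of 3 arrays, and the filter level as a dotted line. In 221530_s_at and 223185_s_at the shBCL9 arrays lie below all others, and the other 2 probe sets lie under the filter level throughout.

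A difference with miR-30 was not detectable for BHLHE41. The difference from cel-miR-67 was 0.01 (95% interval -0.24 to 0.26, limma adjusted p = 0.972), with overlapping arrays. In the controls, BHLHE41 was 0.43 lower in shGFP than in cel-miR-67 (SE 0.11), without overlap. No test is given for that value, because its shGFP arrays are those of the contrast that chose the gene.

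The genes past the filter whose levels followed BHLHE41 most closely over the 12 arrays were the D-type cyclin gene CCND2 (Pearson r = 0.996), the olfactory receptor pseudogene OR7E14P (0.995), the interferon-induced gene SAMD9 (0.995), the antisense RNA DTNB-AS1 (0.994) and the guanine nucleotide exchange factor gene ARHGEF3 (0.993), of 14718 ranked. CCND2 read 10.70 ± 0.03 in shGFP, 6.10 ± 0.17 in shBCL9, 11.62 ± 0.04 with cel-miR-67 and 11.64 ± 0.07 with miR-30 (SD, n = 3 each). All 5 had their lowest mean in shBCL9, and the arrays behind these correlations share 4 groups, so they are a description. Among the clock genes themselves, r with BHLHE41 was 0.941 for DBP, 0.813 for BHLHE40, 0.792 for CRY2, 0.742 for PER2, 0.683 for CRY1 and 0.573 for NR1D2.

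BHLHE40, the paralogue of BHLHE41 also called DEC1, differed much less with the hairpin. Its brightest probe set, 201170_s_at, read 8.35, 8.41 and 8.35 in shGFP and 8.10, 8.17 and 7.97 in shBCL9. The shBCL9 arrays were the lowest, by -0.29 (SE 0.06, 1.22-fold lower). The other probe set, 201169_s_at, overlapped between these groups (-0.08, SE 0.09). With cel-miR-67, 201170_s_at read 9.22, 9.19 and 9.18, and with miR-30 9.28, 9.34 and 9.19. The miR-30 difference of 0.07 was not called (limma adjusted p = 0.530), and that of 201169_s_at was 0.21 (limma adjusted p = 0.223 over probe sets).

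The PER genes encode the inhibitors that enter the nucleus with CRY proteins. PER2 was read by 205251_at at 8.18, 8.16 and 8.14 in shGFP, 8.02, 8.04 and 8.01 in shBCL9, 9.14, 9.05 and 8.99 with cel-miR-67, and 9.05, 8.90 and 8.82 with miR-30. Both infected groups lay below both transfected groups, and shBCL9 lay below shGFP by 0.13 without overlap. With a further quantile normalization that difference was -0.05, and as the mean of probe sets 0.03. The second PER2 probe set, 208518_s_at, was below the filter level in all arrays, at 4.41 to 4.85. There the shBCL9 arrays were higher than the shGFP arrays. The miR-30 difference of 205251_at, -0.13, did not pass (limma adjusted p = 0.240). PER3 was near or under the filter level in every group: 1555131_a_at read 4.63 to 4.94 and exceeded its array's level in 1 of 12 arrays, and the other 3 probe sets read 2.54 to 4.08.

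The probe sets listed with PER1 and MIR6883, a microRNA gene, included the only 1 of the 17 past the filter that was called with miR-30. Probe set 36829_at read 7.65, 7.57 and 7.53 with cel-miR-67 and 8.03, 7.83 and 7.82 with miR-30, without overlap. The difference was 0.31 (SE 0.06, 1.24-fold, limma adjusted p = 0.0262 over 34381 probe sets, of which 2.67% were called). Probe set 202861_at had a similar difference, from 7.97, 8.01 and 7.92 to 8.49, 8.19 and 8.23, and did not pass (0.34, SE 0.09, limma adjusted p = 0.0757). Probe set 242832_at measured -0.07 (limma adjusted p = 0.669), and 244677_at lay below the filter. The call of 36829_at was lost in 6 of 14 alternatives, among them each of those without cel-miR-67 replicate 2 (adjusted p = 0.0978) or 3 (0.0988) and without miR-30 replicate 1 (0.0678) or 2 (0.0554). In the infected arm, 36829_at and 202861_at were higher in shBCL9 than in shGFP by 0.15 and 0.26, without overlap, and 242832_at by 0.17 with overlap.

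CRY1 and CRY2 encode the cryptochromes, which repress the CLOCK and BMAL1 pair. CRY1 read 9.11, 9.12 and 9.30 in shGFP and 9.08, 9.12 and 9.18 in shBCL9, and these groups overlapped (-0.05, SE 0.08). It read 9.49, 9.62 and 9.60 with cel-miR-67 and 9.37, 9.65 and 9.56 with miR-30 (-0.04, limma adjusted p = 0.811). CRY1 thus differed between the arms and little within them. CRY2 read 7.37, 7.27 and 7.32 in shGFP and 7.16, 7.26 and 6.92 in shBCL9, lower by 0.21 without overlap. With cel-miR-67 it read 7.84, 7.70 and 7.98 and with miR-30 7.72, 7.56 and 7.62, a difference of -0.20 that did not pass (limma adjusted p = 0.209).

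**Figure D2:**
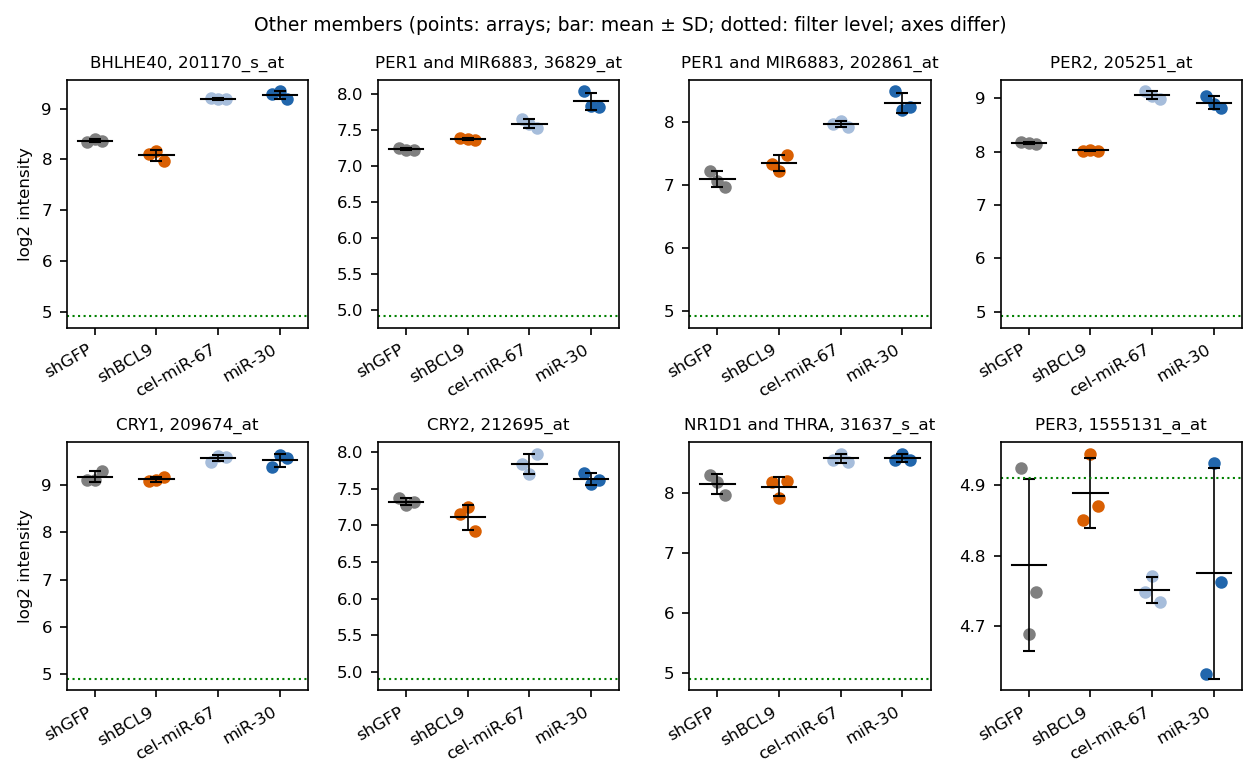
Log2 intensity of the probe sets of BHLHE40, PER1, PER2, PER3, CRY1, CRY2 and NR1D1 by group, for those named over the panels, with a point per array, the mean and SD of 3 arrays, and the filter level as a dotted line (y axes differ). Among the probe sets drawn, the transfected groups lie above the infected groups in all except 1555131_a_at of PER3, which stays near the filter level.

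NR1D2, which encodes the heme-binding repressor REV-ERB beta, was read by a pair of probe sets that opposed each other in the infected arm. Probe set 225768_at read 5.39, 5.41 and 5.45 in shGFP and 5.77, 6.06 and 6.19 in shBCL9, higher by 0.59 (SE 0.09). Probe set 209750_at read 6.04, 6.37 and 6.61 in shGFP and 5.86, 5.91 and 5.84 in shBCL9, lower by 0.47 (SE 0.12). Neither pair of groups overlapped, and the mean of the probe sets differed by 0.06, so the direction of NR1D2 in shBCL9 depends on the probe set. In the transfected arm 225768_at read 8.69, 8.88 and 8.74 with cel-miR-67 and 8.80, 8.84 and 8.93 with miR-30, and 209750_at read 7.51, 7.53 and 7.34 against 7.45, 7.70 and 7.67. Neither was called (0.09 and 0.15, limma adjusted p = 0.693 and 0.572 over probe sets). The probe sets listed with NR1D1, which encodes REV-ERB alpha, and with THRA, whose gene overlaps it, gave no common direction. In shBCL9 they differed from shGFP by 0.15, 0.25 and -0.05 and with miR-30 from cel-miR-67 by 0.20, -0.10 and 0.01 (204760_s_at, 217476_at and 31637_s_at), and in each case the arrays overlapped.

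DBP, a transcription factor of the PAR bZIP family that acts as a clock output, was the clock gene after BHLHE41 with the largest reduction in shBCL9. Probe set 209782_s_at read 7.29, 7.39 and 7.37 in shGFP and 6.51, 6.58 and 6.56 in shBCL9, lower by 0.80 (SE 0.05, 1.74-fold). The second probe set, 209783_at, overlapped between these groups and differed by 0.11 in the other direction. The 3 cel-miR-67 arrays read 7.98 to 8.09 in 209782_s_at, and the miR-30 arrays 7.93, 7.82 and 7.93, a non-overlapping difference of -0.13 that was not called (limma adjusted p = 0.179). Probe set 209783_at ranged from 5.45 to 5.88 over all groups.

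**Figure D3:**
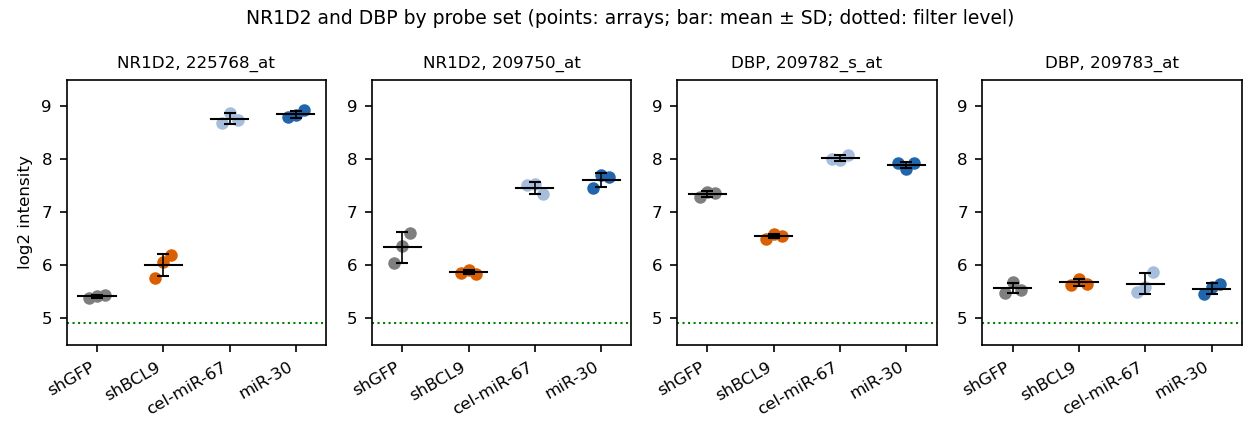
Log2 intensity of the NR1D2 and DBP probe sets by group, with a point per array, the mean and SD of 3 arrays, and the filter level as a dotted line. In shBCL9, NR1D2 is higher than shGFP in 225768_at and lower in 209750_at, and DBP is lower in 209782_s_at and overlaps in 209783_at.

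Counted over the 7 genes in the limma fit, 4 lay past limma's threshold of 0.05 for shBCL9 against shGFP, as did 41.5% of all 14725 genes (22.9% lower, 18.7% higher). This contrast chose the genes, so the count is a description and no test, and nothing is read from it. The median difference of the 7 genes, -0.21 beside 0.03 for all genes, is a description for the same reason. With miR-30, 0 of 7 were called by limma, against 4.98% of all genes (47.1% of those higher, and 58.4% after a further quantile normalization). At an unadjusted p under 0.05 there were 2, CRY2 and DBP, where 21.0% of all genes had such a p. The median difference was -0.04, and -0.02 over all genes.

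The largest single difference of the set, in NR1D2, lay between the 2 control groups, which differ in infection with sorting against transfection, in the small RNA delivered, and in anything else that set the arms apart, so these cannot be told apart. All 7 fitted genes were lower in shGFP than in cel-miR-67 without overlap, as were 34.8% of all genes, and all 6 besides BHLHE41, for which no test is given, passed. Of all genes 61.4% passed, and 33.0% passed in the lower direction. This comparison shares its shGFP arrays with the contrast that chose the genes, so for these 6 genes too the p-values and counts are a description. NR1D2 was 10.2-fold lower in shGFP by 225768_at (-3.35, SE 0.09, limma adjusted p = 1.13e-11), and by 209750_at the difference was -1.12 (SE 0.12, 2.18-fold). As 225768_at read 5.39 to 5.45 in shGFP, under the lowest array median of 5.46, the size of its fold rests on a value near background. PER2 was lower by 0.90 (SE 0.06, 1.86-fold, limma adjusted p = 3.31e-08), BHLHE40 by 0.83 (SE 0.06, 1.77-fold, limma adjusted p = 5.03e-08) and DBP by 0.68 (SE 0.05, 1.60-fold, limma adjusted p = 1.28e-07). CRY2 was lower by 0.52 (limma adjusted p = 2.03e-04) and CRY1 by 0.40 (5.34e-04). The second DBP probe set differed by -0.08 and was not called (limma adjusted p = 0.462 with plain probe sets), and the means of probe sets were -2.24 for NR1D2, -0.56 for BHLHE40, -0.44 for PER2 and -0.38 for DBP.

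Over single probe sets, 12 of the 15 past the filter that read genes other than BHLHE41 were called in the control comparison, all lower in shGFP, against 57.1% of all probe sets and 29.1% in that direction. That count uses the same shGFP arrays and is likewise a description. In those listed with PER1 and MIR6883, 202861_at was lower by 0.88 and 36829_at by 0.36, and 242832_at was not (-0.02, limma adjusted p = 0.848). In those listed with NR1D1 and THRA, 31637_s_at was lower by 0.42 and 204760_s_at by 0.35, and 217476_at was not (0.02, limma adjusted p = 0.866). The ACTB 3' minus 5' signal was lower, and the plasma cell marker level higher, in the same shGFP arrays, and their part was not tested.

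**Figure D4:**
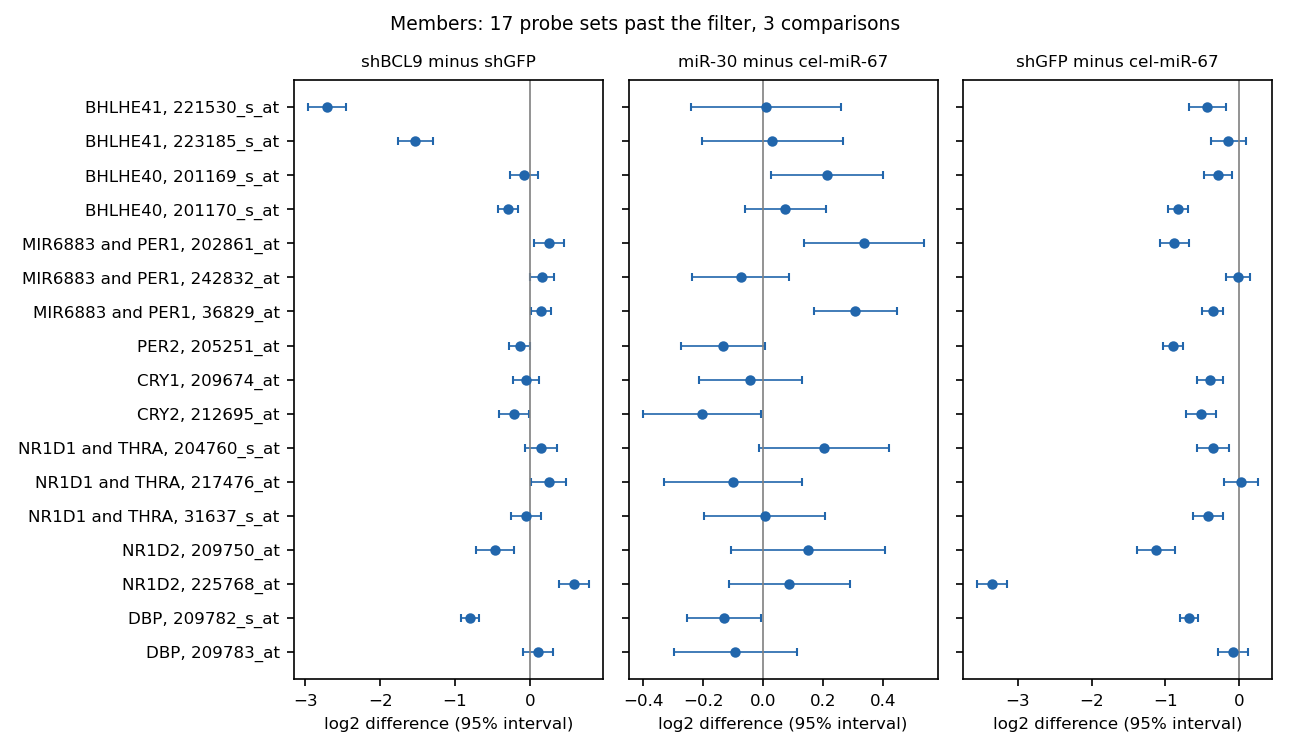
Log2 difference with its 95% interval for the 17 probe sets past the filter (rows) in the 3 comparisons (panels; x axes differ). BHLHE41 stands lowest for shBCL9 minus shGFP, the miR-30 differences lie within -0.20 and 0.34, and NR1D2 stands lowest for shGFP minus cel-miR-67.

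The rest of the clock was described by a list of 24 genes (activators, ROR and PAR bZIP factors, kinases and ligase subunits of the clock, and linked regulators), of which 22 had a probe set of 1 symbol and 20 passed the filter. HLF and CIART did not. Between shBCL9 and shGFP, 3 of 20 rose and 6 fell, 9 in all, close to the 41.5% of all genes. CLOCK, the activator that binds E-boxes with BMAL1, fell by 0.46 (SE 0.08, limma adjusted p = 5.85e-04), with all 3 arrays below those of shGFP. RORA, the nuclear receptor that activates BMAL1 against REV-ERB, fell by 0.71 (limma adjusted p = 5.47e-04), and NFIL3, the D-box repressor that opposes DBP, by 0.47 (limma adjusted p = 1.39e-05). RORA read 4.61 ± 0.25 in shBCL9 (SD, n = 3), under the filter level. BTRC, a ubiquitin ligase subunit that marks PER proteins for decay, fell by 0.44 by its brightest probe set, and with plain probe sets measured 0.20 (limma adjusted p = 0.0915). BMAL1 measured -0.19 (limma adjusted p = 0.0521; 0.00650 without shGFP replicate 1) and NPAS2 0.10 (0.147).

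Rises in shBCL9 were small. PRMT5, an arginine methyltransferase, rose by 0.23 (limma adjusted p = 0.00403), TIPIN, the partner of TIMELESS at replication forks, by 0.21 (0.0147; 0.0507 without shGFP replicate 1) and the deubiquitinase gene USP2 by 0.18 (0.0278). USP2 was not called in 6 of 16 alternatives, among them without shGFP replicate 1 (0.107) and without shBCL9 replicate 1 (0.117) or 3 (0.0548). The list's median difference was -0.16, beside 0.03 over all genes.

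With miR-30, 1 of these 20 genes was called, against 4.98% of all genes. TIMELESS, a replication fork protein related to the fly clock protein of that name, rose by 0.20 (SE 0.04, limma adjusted p = 0.0281; 0.00736 to 0.245 over the alternatives), with all 3 arrays above the controls. It lost its call in 10 of 16 alternatives, including each fit that left out one of the cel-miR-67 arrays (0.0700 to 0.0966) or miR-30 replicate 1 (0.0800) or 2 (0.0986). CLOCK measured -0.12 (limma adjusted p = 0.424), BMAL1 0.19 (0.141) and NPAS2 -0.01 (0.944). The list's median was 0.02, beside -0.02 over all genes.

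The effects of the treatments differed for 6 of the 20 genes, where 26.3% of all genes passed that test. RORA and NFIL3 were the clearest, each lower with the hairpin than with miR-30 relative to its own control, by 0.96 (SE 0.17, limma adjusted p = 0.00132) and 0.63 (SE 0.07, limma adjusted p = 4.72e-05). The count was 3 without shGFP replicate 2, cel-miR-67 replicate 3 or miR-30 replicate 2. For the 10 clock genes themselves no test of the difference of effects is given, because it contains the contrast that chose them.

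In the control comparison 16 of the 20 passed, 5 higher and 11 lower in shGFP, against 61.4% of all genes. TIPIN was 3.51-fold higher in shGFP (1.81, SE 0.06), PRMT5 2.68-fold, TIMELESS 2.63-fold and the clock kinase gene CSNK1E 2.01-fold. NFIL3 was lower by 0.92, the kinase gene GSK3B by 0.97, BTRC by 0.87 and FBXW11, a relative of BTRC, by 0.67, each with a limma adjusted p of at most 1.90e-07. As means of probe sets the values were 0.82 for TIMELESS, 0.62 for CSNK1E, -0.28 for GSK3B, -0.22 for BTRC and -0.36 for FBXW11, all still called, and TIMELESS was 0.24 with plain probe sets (limma adjusted p = 0.0370). CLOCK was lower by 0.20 (limma adjusted p = 0.0494), with overlapping arrays, and lost its call in 10 of 16 alternatives, including those without shGFP replicate 1 (0.164) or 2 (0.130) and without cel-miR-67 replicate 1 (0.170) or 2 (0.106). BMAL1 (-0.08, 0.376) and NPAS2 (0.06, 0.357) did not pass.

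**Figure D5:**
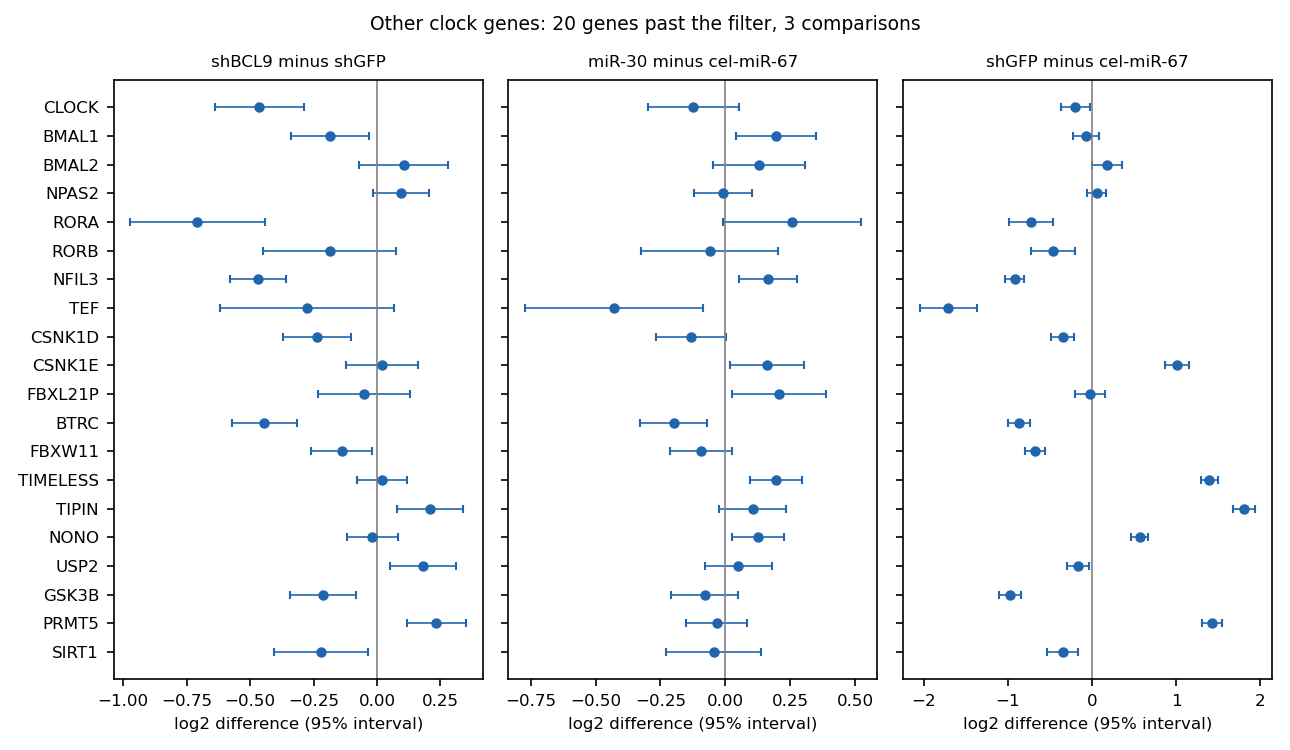
Log2 difference with its 95% interval for the 20 other clock genes past the filter (rows) in the 3 comparisons (panels; x axes differ). RORA, NFIL3, CLOCK and BTRC are lowest for shBCL9 minus shGFP, and in the control comparison TIPIN, PRMT5, TIMELESS and CSNK1E are at least 1.01 higher in shGFP.

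BHLHE40 and BHLHE41 belong to the bHLH-Orange repressors, whose other members are mostly Notch targets. Of 11 such genes listed, 8 passed the filter. HEY1 was called in each comparison: it fell by 0.37 in shBCL9 (SE 0.07, limma adjusted p = 6.80e-04), from 8.42 ± 0.08 to 8.05 ± 0.10 (SD, n = 3 each), and rose by 0.49 with miR-30 (SE 0.07, limma adjusted p = 0.00149), from 7.11 ± 0.09 to 7.61 ± 0.05. No other relative was called in either treatment (1 of 8 each, against 41.5% and 4.98% of all genes), and HES1 with miR-30, at 0.62, just missed the threshold (limma adjusted p = 0.0125 without cel-miR-67 replicate 3). HES1 read 4.64 ± 0.42 with cel-miR-67 (SD, n = 3), a mean under the filter level, so the size of its differences from that group is not given as a fold. In the control comparison 4 of 8 passed, all higher in shGFP, where 28.4% of all genes passed in that direction, with HES1 at 1.94 (6.58 ± 0.15 in shGFP), HEY1 at 1.31 (2.47-fold, SE 0.07) and HES6 at 0.31. The 7 fitted clock genes, BHLHE40 and BHLHE41 among them, were lower in the same shGFP arrays.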

How the data were processed

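The values analysed are log2 intensities per probe set, deposited by the authors for 12 arrays (3' in vitro transcription, biotin label, per the labels' protocols) and made by RMA in affy according to the submitters' processing notes, per the labels; versions are not given in the sources used here. No further normalization was applied. Array medians were 5.46 to 5.53, and no pair shared more than 90 identical values. Precision is limited by the number of arrays.

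Names came from the platform annotation, in which 41097 probe sets had 1 symbol, 1801 several and 11777 none listed. Each of 19775 genes was represented by its brightest probe set, kept above the 40th percentile in 3 arrays (14725 genes), and fitted with limma 3.58.1 in R 4.3.3, a mean per group over all 12 arrays, with Benjamini-Hochberg adjustment over all genes at 0.05. A second fit held all 34381 probe sets past the filter. The fit was tested on simulated data with changes planted in miR-30 against cel-miR-67. It recovered 18 of 50 changes of 0.25, 41 of 50 of 0.5 and 50 of 50 of 1 on the log2 scale, with 5 false calls. A miR-30 difference of 0.5 or less can therefore go uncalled, more often at 0.25 than at 0.5. A larger one can too, as HES1 at 0.62 was not called. BCL9 was also tested by exact permutation. Same-numbered arrays were checked for pairing and were not treated as pairs.

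The clock genes and the lists were chosen with earlier results of these data known. The text names every clock gene chosen, CLOCK, BMAL1 and NPAS2, up to 4 called genes per direction of the other clock genes and 3 of the bHLH-Orange relatives by adjusted p, BCL9 and the 5 genes most correlated with BHLHE41; other genes named, such as HLF, CIART and the markers, are those of fixed lists. The markers given with single values (SDC1, CD38, XBP1, FGFR3 and CDH1, and those of the same lists given beside them) were chosen after their values were seen. The alternatives were other filters, probe set rules, scalings, array sets, weights, variance models, a replicate block and leaving out each array. Those for the lists in the control comparison and for the PER1 probe sets were added after the data were seen. Python 3.11.15 and matplotlib 3.10.9 drew the figures.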

Additional observations from a re-analysis of the deposited data

Results flagged for a closer look

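The effects of miR-30 and of the BCL9 hairpin, each against its own control, differed by limma's interaction test for the genes below (adjusted p under 0.05). The differences, miR-30 effect minus shBCL9 effect on the log2 scale, were 0.34 for CLOCK (adjusted p = 0.0439), 0.38 for BMAL1 (0.0147), 0.96 for RORA (0.00132), 0.63 for NFIL3 (4.72e-05), 0.24 for BTRC (0.0473), -0.27 for PRMT5 (0.0215), 0.87 for HEY1 (2.87e-05) and 0.29 for BCL9 (0.0404). BMAL1 passed this test although it was called in neither treatment alone (-0.19 and 0.19). HEY1 was called in opposite directions in the treatments (-0.37 and 0.49). CLOCK, BTRC and BCL9 lay near the threshold. The count among the other clock genes was 6, and 3 without shGFP replicate 2, cel-miR-67 replicate 3 or miR-30 replicate 2. At a threshold of 0.01 it was 2.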

How the results depend on the processing

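Read with plain probe sets, 1 of 5 clock genes was called between shBCL9 and shGFP, where 40.1% of all genes were. Between the controls 4 of 5 were called, against 59.4% of all genes. Both counts are a description. DBP turned to 0.11 in shBCL9 and BTRC to 0.20. As means of probe sets, USP2 turned to 0.0012 and HEYL to -0.19 between the controls, and 2 of 7 relatives were called in shBCL9, against 43.4% of all genes. Array weights gave 14 of 20 other clock genes in shBCL9, where 51.1% of all genes were called, and -0.17 for BCL9 (called). With miR-30 the count of other clock genes was 0 with no filter, plain probe sets, median centring, only the 6 arrays, or a threshold of 0.01, 2 with the stricter filter and 3 with trend and robust variance; 2 relatives were called with the stricter filter, array weights, or trend and robust variance. The difference of effects was called for 2 genes at 0.01. The cause was not tested. Over all genes, miR-30 calls were 733 (4.98%). They were 443 with only the 6 arrays (3.01%), 1113 with the stricter filter (9.84%), 1220 with array weights (8.29%) and 1419 with trend and robust variance (9.64%). With no filter 2.54% were called, with plain probe sets 4.1% and with median centring 4.48%.

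Leaving out single arrays gave 4 to 5 clock genes in shBCL9, as a description, and 0 with miR-30; 7 to 10, 0 to 1 and 14 to 16 other clock genes; 1, 1 to 2 and 4 to 5 relatives; 3 to 6 differences of effects; and -0.21 to -0.094 for BCL9 in shBCL9. The share of all genes called was not counted in those fits, so nothing is read from their counts. With the replicate block, 0 clock genes were called with miR-30, against 4.72% of all genes. The count in shBCL9 was 4, against 42.1% of all genes, again only a description, as that contrast chose the genes. Correlations of same-numbered arrays were 0.050 to 0.10 in the infected arm and 0.091 to 0.23 in the transfected arm, all positive. Those of differently numbered arrays were -0.15 to 0.065 and -0.24 to 0.13. The main fit did not take the numbers as pairs, and the replicate block is the alternative that allows for them.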
